A study of Mus musculus with 10 samples.

Results

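The mitochondrial ribosomal protein genes were followed through germ cells of the fetal mouse ovary at E14.5 (embryonic days). They were taken as the protein-coding genes whose symbol is Mrpl or Mrps followed by a digit, with pseudogenes (symbols ending in -ps) excluded, which gave 78 of the 55536 genes in the count table. Of these, 77 passed the filter on low counts. The exception was Mrpl53, with 1 read over the 10 libraries.

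The study asked how oocytes change when Taf4b, which encodes a gonad-enriched subunit of the general transcription factor TFIID, is missing. RNA was sequenced from female germ cells sorted as live cells positive for an Oct4-EGFP reporter, in 4 Taf4b-deficient, 4 Taf4b-heterozygous and 2 Taf4b-wildtype libraries. Every group shares the strain C57BL/6, the age, the sex and the reporter, for which the parents were homozygous. The parents were heterozygous for the Taf4b deficiency, so the genotypes could arise in the same litters, and the deficient genotype is described as infertile and the other 2 as fertile. Whether each library is a separate fetus or a pool is not stated, and a p-value here reflects only the variation among the libraries at hand, part of which may be technical.

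Mitochondria translate the few proteins that their own genome encodes, all of them subunits of the respiratory chain and ATP synthase, on a ribosome whose RNA is mitochondrial and whose proteins all come from nuclear genes. Part of those proteins descend from bacterial ribosomal proteins, and the rest were added in the mitochondrial lineage. Female germ cells multiply their mitochondria on the way to the mature oocyte, and inherited defects of human MRPS22, MRPS7 and MRPL50 have been linked to ovarian failure.

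By the structure of the mammalian mitoribosome, 51 of the 78 proteins belong to the large subunit and 26 to the small subunit. Mrps30 and Mrps18a sit in the large subunit in spite of their symbols. Mrps36 belongs to neither, since its product is a component of the alpha-ketoglutarate dehydrogenase complex. In the large subunit 31 proteins have a bacterial counterpart and 20 do not, and in the small subunit 17 have one and 9 do not.

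Library totals ran from 28949924 to 44166320 reads, and no pair of libraries of 1 genotype matched within sampling noise (lowest chi-square per degree of freedom 11.8). Taf4b itself had 56.1, 62.1, 64.9 and 60.1 CPM (TMM-scaled counts relative to the library's reads in tested genes) in deficient libraries, 144, 223, 195 and 234 CPM in heterozygous libraries and 152 and 207 CPM in wildtype libraries. The germ cell genes were abundant everywhere, with the 7-gene germ cell list summing to between 4720 and 5187 CPM. Some libraries stood apart in ways the genotype does not set. Deficient replicate 3 and heterozygous replicate 1 were the least advanced in meiosis, and deficient replicates 2 and 4 and heterozygous replicate 3 had between 87.4 and 454 CPM of Gm23935, an RNA resembling ribosomal RNA, against 4146 to 5068 CPM in the other libraries.

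The genes are spread over 17 chromosomes, with 11 of them on chromosome 11. They often start close to a gene on the opposite strand, called head to head here whether or not the pair overlaps at the starts. The start of 33 of the 78 (42.3%) lay within 1000 bases of the start of a protein-coding gene on the opposite strand, against 2386 of 22028 protein-coding genes (10.8%) in the GENCODE M21 annotation of GRCm38. Exons of 33 members overlap those of another gene, which matters for their counts because the strand setting of the counting is not given in the sources used here, so reads of overlapping genes cannot be told apart. RefSeq promoters on the GRCm38.p6 build were found for 69 of the 78 members, 75 promoters in all, and the 250 bases upstream of the start were searched on both strands for 5 letter patterns. The NRF1 pattern, GCGCA and GCGC with any base between them, was in 13.3% of member promoters, against 3.74% of all 32851 promoters. The ETS pattern CCGGAAG, the core of sites bound by GABP, was in 24.0%, against 6.91%. The Sp pattern GGGCGG was in 49.3%, against 32.7%, CCAAT in 37.3%, against 33.8%, and TATAAA in 6.67%, against 12.4%. Among protein-coding promoters alone the shares were 5.18% for NRF1, 8.98% for ETS, 42.6% for Sp, 35.4% for CCAAT and 11.6% for TATAAA. The windows also differed in composition. Member windows had a median of 17 CG letter pairs and 58.4% G or C. All promoters had 6 and 52.4%, and protein-coding ones 10 and 55.6%. Whether composition accounts for the pattern shares was not tested. The pattern matches describe letters in the window and show no binding.

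The sequences below are shown because they belong to members on which the results turn. They are the 41 bases between the divergent RefSeq starts of Mrps11 and Mrpl46, a member with a called rise and its neighbour (chr7:78783090-78783130, plus strand), and the upstream windows of Mrps14 (chr1:160194965-160195214, plus strand), which had the second smallest p between deficient and heterozygous libraries, and of Mrps2 (chr2:28467816-28468065, plus strand), Mrpl34 (chr8:71464676-71464925, plus strand) and Mrps30 (chr13:118387253-118387502, minus strand), which fell with meiotic stage. Each reads 5′ to 3′ on the strand named, from RefSeq, and capitals mark a match to any of the 5 patterns.
Mrps11 and Mrpl46, the interval between their starts: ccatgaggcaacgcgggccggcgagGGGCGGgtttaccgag
Mrps14, upstream window: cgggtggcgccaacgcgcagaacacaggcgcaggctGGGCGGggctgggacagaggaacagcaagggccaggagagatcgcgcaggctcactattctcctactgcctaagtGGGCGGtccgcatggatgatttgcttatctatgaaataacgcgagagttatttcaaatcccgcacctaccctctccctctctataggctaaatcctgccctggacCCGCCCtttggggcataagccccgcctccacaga
Mrps2, upstream window: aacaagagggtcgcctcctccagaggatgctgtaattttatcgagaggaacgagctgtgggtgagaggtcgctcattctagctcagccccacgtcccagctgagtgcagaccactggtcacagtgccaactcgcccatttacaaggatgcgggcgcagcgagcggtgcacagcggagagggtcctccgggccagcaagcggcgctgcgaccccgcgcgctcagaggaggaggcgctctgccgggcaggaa
Mrpl34, upstream window: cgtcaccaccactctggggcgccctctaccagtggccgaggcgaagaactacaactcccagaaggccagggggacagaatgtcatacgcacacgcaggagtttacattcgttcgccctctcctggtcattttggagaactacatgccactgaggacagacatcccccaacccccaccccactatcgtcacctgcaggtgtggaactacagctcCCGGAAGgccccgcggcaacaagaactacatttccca
Mrps30, upstream window: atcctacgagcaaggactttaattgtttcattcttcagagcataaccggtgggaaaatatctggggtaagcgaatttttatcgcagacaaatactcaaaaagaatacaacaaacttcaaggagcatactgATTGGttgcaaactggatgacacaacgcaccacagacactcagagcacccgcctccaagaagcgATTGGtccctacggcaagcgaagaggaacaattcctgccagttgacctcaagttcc
The Mrps11 and Mrpl46 interval and the Mrps14 window hold Sp matches, the Mrpl34 window holds 1 ETS match, the Mrps30 window holds 2 CCAAT matches on the opposite strand, and the Mrps2 window holds none of the 5 patterns.

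Together the members took between 0.601% and 0.799% of each library's reads. Levels are compared between genes on the authors' TPM scale, which corrects for transcript length. The median gene had 107 TPM, with medians of 111 TPM in the large and 104 TPM in the small subunit, and 43 of the 78 genes averaged 100 TPM or more. Mrpl42, a large-subunit protein with no bacterial counterpart, averaged 772 ± 88.7 TPM (SD, n = 10), was the highest member in every library, and alone made up 7.5% of the summed member TPM. Its mean was 2.1 times that of Mrpl54, at 368 ± 61.8 TPM. Mrpl23, which lines the exit of the peptide tunnel, followed at 363 ± 43.1 TPM, which does not differ from Mrpl54 beyond their spread. Mrpl20, an RNA-binding protein of the large subunit core, averaged 300 ± 37.9 TPM and Mrpl33 279 ± 29.9 TPM, again within each other's spread.

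At the low end 6 genes averaged under 30 TPM. Mrpl19 had 17.2 ± 1.87 TPM, Mrps34 19.1 ± 1.9 TPM and Mrpl32 20.2 ± 2.26 TPM, Mrps25 had 14.3 TPM in its lowest library, and these 4 overlap in their library values. Mrpl53 had between 3.42 and 7.02 TPM although it had 1 read in the count table. Its exons overlap Ccdc142os and, on the same strand, Gm42688. Mrps34 likewise shares exons with Nme3 on its own strand and with Mapk8ip3 on the other, and both its levels are uncertain for that reason.

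**Figure D1:**
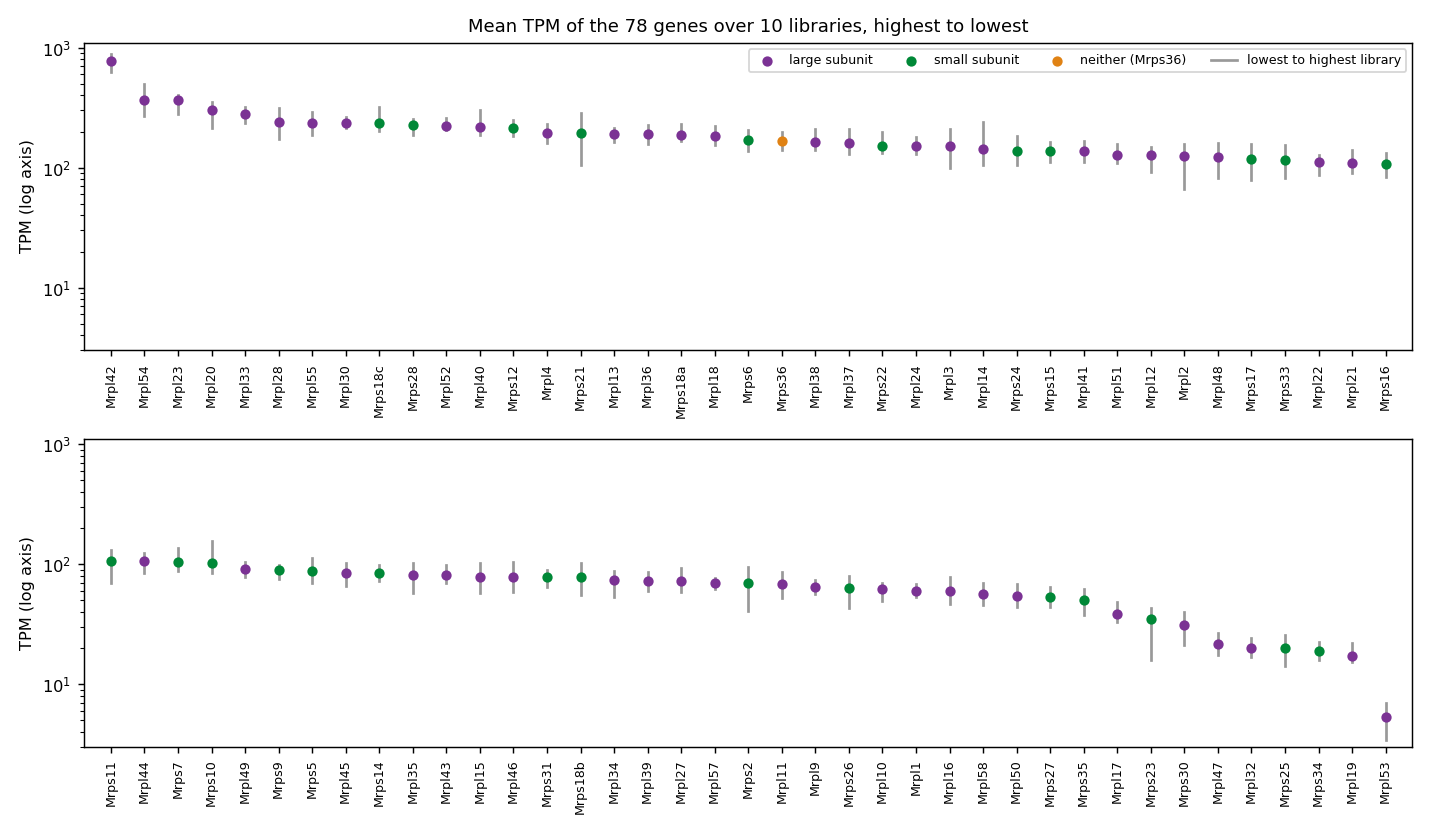
Mean TPM of the 78 genes over the 10 libraries on a log axis, from the highest to the lowest, with grey lines from the lowest to the highest library and colours for the subunit. Mrpl42 at 772 TPM stands above all others, and both subunits run through the whole range down to Mrpl53 at 5.33 TPM.

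Proteins of known function in the mitoribosome covered much of this range. Among those of the stalk that recruits translation factors, Mrpl12 averaged 128 ± 19.4 TPM, Mrpl10 62.6 ± 6.05 TPM and Mrpl11, at the stalk base, 68.5 ± 9.63 TPM over the 10 libraries. Mrps12, of the decoding centre, averaged 212 ± 21.2 TPM, and Mrpl3, near the peptidyl transferase centre, 151 ± 32.6 TPM. The Mrps18 paralogues differed: Mrps18c averaged 236 ± 31.7 TPM, Mrps18a 186 ± 20.6 TPM and Mrps18b 77.9 ± 12.8 TPM. Mrpl58, the peptidyl-tRNA hydrolase that releases stalled ribosomes, had 57.0 ± 6.34 TPM, and Mrpl45, which in human cells tethers the ribosome to the inner membrane, 84.9 ± 11.1 TPM. Of the genes linked to human ovarian failure, Mrps22 averaged 152 ± 19.1 TPM, Mrps7 105 ± 13.0 TPM and Mrpl50 54.8 ± 8.88 TPM.

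The members tended to move together across libraries. Over the 2926 pairs of tested members the median Pearson correlation of log2 CPM across the 10 libraries was 0.55, and 87.9% of pairs were above 0. The correlation ranged from -0.69 to 0.99. This is a description, since the pairs share the same libraries and their depth. The correlation was not computed over pairs of other genes, so it is not shown to be particular to the members. Single genes varied little. The SD of log2 CPM over the 10 libraries had a median of 0.18 and ran from 0.12 in Mrpl3, followed by Mrps36, Mrps9 and Mrpl57, to 0.37 in Mrpl15, with Mrps2, Mrps30 and Mrpl34 next below it.

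The comparison of deficient with heterozygous libraries asks what losing the remaining copy of Taf4b changes. Mean log2 CPM over the 77 members was 6.30, 6.43, 6.37 and 6.27 in deficient libraries, 6.19, 6.06, 6.28 and 6.00 in heterozygous libraries, and 6.33 and 6.18 in wildtype libraries. The deficient values lay at or above the upper end of the heterozygous ones, with deficient replicate 4 just below heterozygous replicate 3, and the wildtype values lay among both. Summed, the members had 7427 ± 367 CPM in deficient libraries (SD, n = 4), 6479 ± 590 CPM in heterozygous libraries (n = 4) and 6982 ± 531 CPM in wildtype libraries (n = 2). The same order held for the large subunit, with mean log2 CPM of 6.49 ± 0.08, 6.26 ± 0.12 and 6.4 ± 0.11 in deficient, heterozygous and wildtype libraries, and for the small subunit, with 6.08 ± 0.07, 5.90 ± 0.14 and 6.01 ± 0.10. In bulk RNA, fewer cells of a type and less RNA per cell cannot be told apart.

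**Figure D2:**
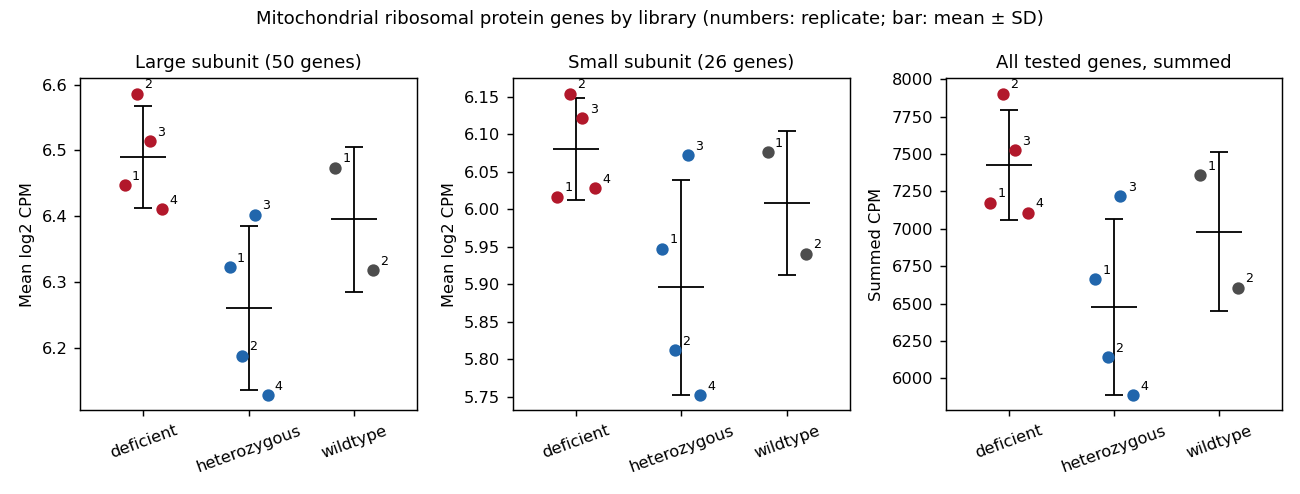
Mean log2 CPM of the large and small subunit genes and summed CPM of all 77 tested genes, 1 point per library with its replicate number, deficient at the left, then heterozygous and wildtype; crossbars and bars are the mean and SD. Deficient libraries lie between 7107 and 7904 summed CPM and heterozygous ones between 5888 and 7219, so the groups overlap at heterozygous replicate 3.

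No member was called between deficient and heterozygous libraries by edgeR (adjusted p under 0.05), where 0.0148% of the 20317 genes tested were called in either direction and 0.00984% as higher. The fitted log2 difference was above 0 for 68 of the 77 members, with a median of 0.21, against a median of -0.05 over all genes tested and 0.01 over the 9086 protein-coding genes at a mean of 10 CPM or more. At an unadjusted p under 0.05, 21 members were higher and 0 lower in deficient libraries, or 27.3% of the members, against 4.81% of all genes higher and 7.11% lower. For 15 members (19.5%) all 4 deficient libraries were above all 4 heterozygous ones, against 3.31% of all genes, and for 0 members were they all below, against 2.66%. DESeq2 called 4 members (5.19%), all higher in deficient libraries, where it called 224 genes in all (1.1%), 129 higher (0.635%) and 95 lower, and limma voom called 0. Cytosolic ribosomal protein genes leaned likewise, with 73 of 79 above 0, a median of 0.28 and 22 higher at an unadjusted p under 0.05 (27.8%), as did the nuclear-encoded respiratory chain genes, with 68 of 83 above 0, a median of 0.14 and 15 higher (18.1%), and the members were not tested against either group. On the TPM scale the members' median was smaller, at 0.12 with 58 of 77 above 0, against a median of -0.08 over all genes on that scale.

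Mrpl36, a small zinc-binding protein of the large subunit (chromosome 13, 73328513 to 73332178), had the smallest p. It had 99.5, 109, 103 and 98.1 CPM in deficient libraries, 89.0, 68.0, 72.3 and 68.9 CPM in heterozygous libraries and 97.2 and 89.1 CPM in wildtype libraries. Every deficient library was above every heterozygous and wildtype one. The log2 difference of deficient from heterozygous libraries was 0.46 ± 0.12 (SE, adjusted p = 0.330). Its exons overlap Ndufs6, a complex I gene that starts 29 bases away on the other strand and differed by 0.25 on the same scale.

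Mrps14, of the head of the small subunit (chromosome 1, 160195215 to 160202170), had 129, 144, 135 and 141 CPM in deficient libraries, 106, 110, 97.9 and 112 CPM in heterozygous libraries and 138 and 124 CPM in wildtype libraries. The heterozygous libraries stood below all others, and the deficient and wildtype ones overlapped. Its log2 difference was 0.36 ± 0.10 (adjusted p = 0.346). Mrpl30, a large-subunit protein (chromosome 1, 37890477 to 37898535), had 136, 147, 142 and 128 CPM in deficient libraries, 118, 102, 105 and 96.2 CPM in heterozygous libraries and 138 and 116 CPM in wildtype libraries, with a log2 difference of 0.39 ± 0.11 (adjusted p = 0.346). In TPM, Mrpl30 averaged 241 ± 6.9 in deficient and 233 ± 23.7 in heterozygous libraries. Mrpl43, chosen here because DESeq2 called it with these 3, had 31.8, 35.8, 33.5 and 27.5 CPM in deficient libraries, 25.7, 23.4, 20.1 and 22.8 CPM in heterozygous libraries and 29.5 and 29.1 CPM in wildtype libraries. DESeq2 gave the 4 genes adjusted p between 0.0107 and 0.04999. Exons of Mrpl43 overlap Twnk, the mitochondrial DNA helicase gene, on the other strand.

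The genes of known role also had fitted differences above 0 on the count scale, other than Mrpl50, with none called. The stalk gene Mrpl12 averaged 50.1 ± 4.78 CPM in deficient and 37.3 ± 8.02 CPM in heterozygous libraries, with no overlap, a log2 difference of 0.42 ± 0.17 and an adjusted p of 0.390, while its partner Mrpl10 differed by 0.17 ± 0.13 and Mrpl11 by 0.21 ± 0.12. Mrps12, of the decoding centre, differed by 0.19 ± 0.13 and Mrpl3 by 0.09 ± 0.11. Mrpl58 averaged 75.7 ± 4.69 CPM in deficient and 60.3 ± 5.27 CPM in heterozygous libraries, again without overlap, a difference of 0.33 ± 0.12. Mrpl44, whose protein resembles RNase III, averaged 88.0 ± 3.89 CPM and 70.5 ± 10.8 CPM, without overlap, a difference of 0.32 ± 0.13, and Mrpl45 differed by 0.25 ± 0.14. The paralogues Mrps18a, Mrps18b and Mrps18c differed by 0.07 ± 0.14, 0.44 ± 0.18 and 0.16 ± 0.14. Mrps36, not a mitoribosomal protein by structure, differed by 0.14 ± 0.12, and Mrpl57 by 0.11 ± 0.12. Several of these values moved with single libraries. Without heterozygous replicate 3 the difference was 0.42 for Mrpl45, 0.32 for Mrps12, 0.31 for Mrps18c, 0.20 for Mrps18a and 0.19 for Mrpl3. Without deficient replicate 2 it was 0.10 for Mrpl10, 0.08 for Mrpl57 and 0.01 for Mrps18a, without heterozygous replicate 1 it was 0.24 for Mrps36, and without deficient replicate 4 it was 0.03 for Mrpl3. Mrpl3 and Mrps18a each moved by over 1.5 times with any of 6 libraries left out.

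The genes linked to human ovarian failure had fitted differences close to 0. Mrps22 averaged 101 ± 4.98 CPM in deficient and 98.9 ± 10.8 CPM in heterozygous libraries. Its log2 difference was 0.03, with an approximate 95% interval of -0.19 to 0.26. Mrps7 differed by 0.03 (-0.22 to 0.28) and Mrpl50 by -0.07 (-0.35 to 0.20). All 3 overlapped fully between the groups. Differences of Mrpl10, Mrpl11, Mrps18a, Mrps18c, Mrps22 and Mrps7 were below 0 on the TPM scale, between -0.06 and -0.00074 with a pseudocount of 1, so no direction is given for them.

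Each class by subunit and origin had a median difference above 0, the smallest class holding 9 genes. As a background, 44.9% of all genes tested and 51.2% of protein-coding genes at a mean of 10 CPM or more were above 0. The classes were not tested against that background. The median difference of deficient from heterozygous libraries was 0.22 for large-subunit proteins with a bacterial counterpart (30 of 31 above 0), 0.20 for those without (16 of 19), 0.19 for small-subunit proteins with a counterpart (15 of 17) and 0.11 for those without (6 of 9). The 5 mitoribosomal proteins that lie outside the symbol rule, among them Dap3 and Ptcd3, were all above 0, with a median of 0.22 and none called. Among the genes that work with the ribosome, none was called either: 13 of 16 translation factors, 18 of 29 assembly factors and 11 of 13 transcription and replication genes were above 0. The 13 mitochondrially encoded genes had a median of 0.03, with 8 above 0.

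**Figure D3:**
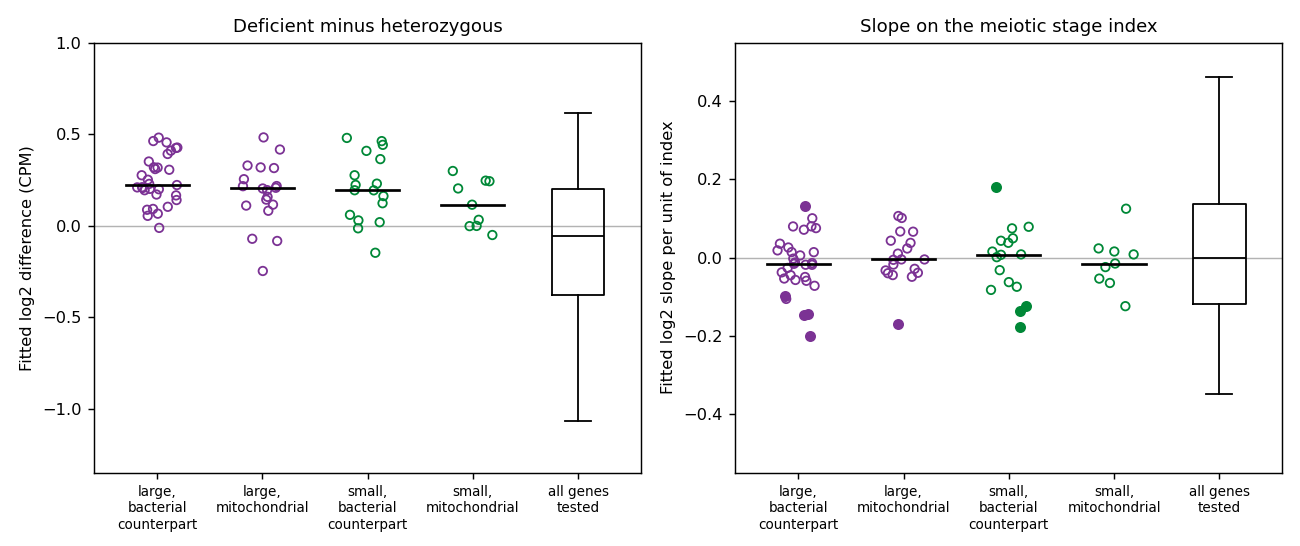
Fitted log2 differences of deficient from heterozygous libraries (left) and fitted slopes on the meiotic stage index (right) for large and small subunit genes with and without a bacterial counterpart, with a line at each median; filled points passed the adjusted threshold. The box at the right of each panel covers the middle of all 20317 genes (quartiles, whiskers at the 5th and 95th percentiles). At the left 68 of 77 genes lie above 0 and none is filled, and at the right 10 are filled.

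The litters give the same comparison in small numbers. Among litters dated January 29 the members' mean log2 CPM was 6.30 and 6.43 for deficient replicates 1 and 2, against 6.00 for heterozygous replicate 4 and 6.33 for wildtype replicate 1. Those dated March 7 gave 6.27 for deficient replicate 4, against 6.19, 6.06 and 6.28 for heterozygous replicates 1 to 3. The March 1 litter gave 6.37 for deficient replicate 3, against 6.18 for wildtype replicate 2. With litter date as a term the median difference of deficient from heterozygous libraries was 0.23, with 71 of 77 above 0 and none called. With the meiotic stage index as a term it was 0.21, with 72 of 77 above 0 and none called. Leaving out heterozygous replicate 1, the least advanced of its group, brought the median to 0.27 and the called members to 4, namely Mrpl34, Mrpl36, Mrps24 and Mrps6, at adjusted p between 0.0436 and 0.0493, when 519 genes were called in all. The summed level of the 16 blood and macrophage markers moved with this comparison, at 24.6 to 29.6 CPM in deficient libraries, 9.05 to 19.0 CPM in heterozygous libraries and 28.8 to 29.0 CPM in wildtype libraries, with none of the 16 at 0 in all libraries. Its part in the result was not tested, and the same holds for the 13 supporting cell markers, at 33.9 to 52.0 CPM in deficient, 25.6 to 49.3 CPM in heterozygous and 20.4 to 55.4 CPM in wildtype libraries.

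Against the 2 wildtype libraries the median difference of the deficient ones was smaller, and whether it differs from that against heterozygous libraries was not tested. No member was called (0% of all genes were), 0 had an unadjusted p under 0.05 (2.6% of all genes were higher and 1.06% lower by that measure), and DESeq2 and limma voom called 0. The median log2 difference was 0.09, with 66 of 77 above 0, against 0.005 over all genes. Of the cytosolic ribosomal protein genes 19 of 79 were above 0 against wildtype, with a median of -0.07. Of the nuclear-encoded respiratory chain genes 65 of 83 were, with a median of 0.07. The members were not tested against either group. All 4 deficient libraries were above both wildtype ones for 12 members (15.6%), against 6.47% of all genes, and below them for Mrpl48 and Mrpl54, against 6.18%. Mrpl54, second in level among the members, had 109, 123, 95.9 and 109 CPM in deficient libraries and 134 and 129 CPM in wildtype libraries, a log2 difference of -0.27 ± 0.15. In heterozygous libraries it had 118, 135, 149 and 116 CPM, so it was among the 9 members whose fitted difference of deficient from heterozygous libraries lay below 0. Mrpl39, whose protein resembles a threonyl-tRNA synthetase domain, averaged 97.5 ± 6.91 CPM in deficient and 80.5 ± 5.37 CPM in wildtype libraries, a difference of 0.28 ± 0.15. Mrpl40 averaged 144 ± 7.25 CPM and 119 ± 9.37 CPM, a difference of 0.28 ± 0.17. The adjusted p of each was 1.00. The median rested on the wildtype library used: it was 0.009 without wildtype replicate 2 and 0.16 without wildtype replicate 1.

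When heterozygous and wildtype libraries were joined as the fertile side, each genotype with equal weight, no member was called by edgeR, DESeq2 or limma voom (0.00492% of all genes were called), and 71 of 77 were above 0, with a median of 0.16, against -0.01 over all genes. At an unadjusted p under 0.05, 7 members were higher and 1 lower, against 1.98% and 2.32% of all genes. Deficient libraries were above all 6 fertile ones for Mrpl36, Mrpl39, Mrpl44, Mrps23 and Mrps9 (6.49% of members), against 0.847% of all genes, and below all of them for none. Mrpl36 had the smallest p, with a difference of 0.29 ± 0.11, followed by Mrpl39 at 0.30 ± 0.12 and Mrpl30 at 0.26 ± 0.11, each with an adjusted p of 0.904. These comparisons share the deficient libraries, so they are not separate evidence.

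Heterozygous libraries were compared with wildtype ones to ask whether 1 copy differs from 2. No member was called by edgeR, DESeq2 or limma voom (0.00492% of all genes), and 60 of 77 were below 0, with a median of -0.11, against 0.02 over all genes. At an unadjusted p under 0.05 only Mrps14 was lower, by 0.30 ± 0.12 on the log2 scale (adjusted p = 0.537), against 2.1% of all genes lower and 6.2% higher. Mrpl36 had a difference of -0.32 ± 0.15 and Mrps18b of -0.48 ± 0.22 (adjusted p = 0.601 each). All heterozygous libraries were below both wildtype ones for 9 members (11.7%), against 6.65% of all genes, and above them for Mrps22 (1.3%), against 9.16%. On the TPM scale the members' median was -0.006, against 0.06 over all genes, and 34 of 77 were above 0. On counts without wildtype replicate 2 their median was -0.22, against 0.02 over all genes.

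Meiotic stage varied more within genotypes than between them. A stage index was taken as the mean log2 CPM of 32 meiotic prophase genes minus that of 22 pluripotency and early germ cell genes, none of them a member. It was 0.30, 1.35, -1.83 and -0.14 in deficient libraries, -1.82, 2.23, 1.91 and 1.81 in heterozygous libraries and 0.07 and 0.42 in wildtype libraries. High values stand for more advanced cells, so 3 heterozygous libraries were the most advanced and 1 library each of the deficient and heterozygous genotypes the least. Each gene's slope on the index was fitted with genotype in the model.

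With genotype accounted for, 10 of the 77 members (13.0%) were called on the index, against 24.8% of all genes tested. Of these, 2 rose with the index, against 12.9% of all genes, and 8 fell, against 11.8%. The median slope of the members was -0.01 log2 units per unit of index, and 34 were above 0. The members' share was thus below the background. The rising genes were Mrps11 and Mrpl35, and the falling ones, from the steepest, were Mrpl15, Mrps2, Mrps30, Mrpl32, Mrpl34, Mrps18b, Mrps24 and Mrpl23. By class, 6 of 50 large-subunit genes and 4 of 26 small-subunit genes were called.

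**Figure D4:**
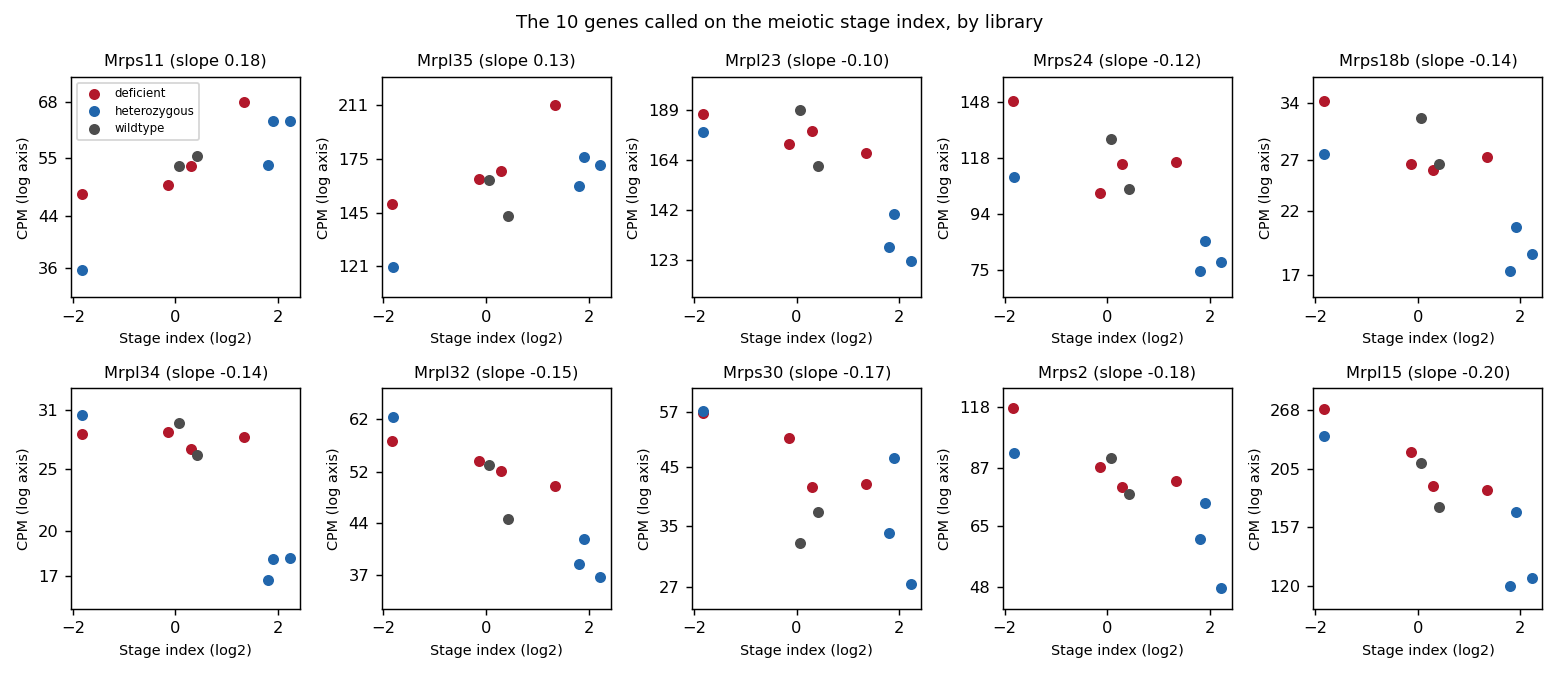
CPM on a log axis against the meiotic stage index for the 10 called members, 1 point per library, coloured by genotype. Mrps11 and Mrpl35 are lowest in heterozygous replicate 1 at an index of -1.82, while Mrpl34 lies between 16.7 and 18.1 CPM in the 3 most advanced heterozygous libraries and between 26.4 and 30.5 CPM in all others.

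Mrps11, of the platform of the small subunit (chromosome 7, 78783119 to 78792989), rose by 0.18 ± 0.04 per unit of index (adjusted p = 0.00530). It had 53.3, 68.0, 47.9 and 49.5 CPM in deficient libraries, 35.8, 63.2, 63.3 and 53.5 CPM in heterozygous libraries and 53.3 and 55.3 CPM in wildtype libraries. Heterozygous replicate 1 was the lowest and deficient replicate 2, the most advanced of its genotype, the highest. Its head-to-head neighbour Mrpl46, of the large subunit, had a slope of 0.11 ± 0.04 (adjusted p = 0.106), and across the 10 libraries the log2 CPM of both correlated with r = 0.82. Their exons overlap in the GENCODE annotation, so their reads cannot be told apart where they do. Mrpl35, of the large subunit (chromosome 6, 71812997 to 71826969), rose by 0.13 ± 0.03 (adjusted p = 0.0126) and had 168, 211, 150 and 163 CPM in deficient libraries, 121, 171, 176 and 160 CPM in heterozygous libraries and 163 and 144 CPM in wildtype libraries.

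Mrpl15, a large-subunit protein (chromosome 1, 4773206 to 4785739), fell by 0.20 ± 0.04 per unit of index (adjusted p = 0.00480). It had 189, 186, 268 and 221 CPM in deficient libraries, 237, 125, 168 and 120 CPM in heterozygous libraries and 210 and 172 CPM in wildtype libraries. The least advanced library of the deficient and of the heterozygous genotype was the highest of its group. Mrps2, of the small subunit (chromosome 2, 28468066 to 28471178), fell by 0.18 ± 0.04 (adjusted p = 0.0128) and had 79.2, 81.5, 118 and 87.6 CPM in deficient libraries, 93.7, 47.8, 73.0 and 61.2 CPM in heterozygous libraries and 91.6 and 76.4 CPM in wildtype libraries. Mrpl32, which in yeast and mouse must be cleaved by the m-AAA protease before it enters the ribosome, fell by 0.15 ± 0.04 (adjusted p = 0.0127). It had 52.2, 49.7, 57.6 and 53.9 CPM in deficient libraries, 62.3, 36.8, 41.7 and 38.4 CPM in heterozygous libraries and 53.3 and 44.6 CPM in wildtype libraries. Without heterozygous replicate 1 the Mrpl32 slope was -0.08. In all 3 genes heterozygous replicate 1 was above the other heterozygous libraries.

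Mrpl34 (chromosome 8, 71464959 to 71465747) fell by 0.14 ± 0.04 (adjusted p = 0.0337). It had 26.9, 28.2, 28.4 and 28.7 CPM in deficient libraries, which span the index with little change, against 30.5, 18.1, 18.1 and 16.7 CPM in heterozygous libraries and 29.6 and 26.4 CPM in wildtype libraries. Its slope was -0.01 without heterozygous replicate 1, so the fall rests on that library. Mrps18b fell by 0.14 ± 0.04 (adjusted p = 0.0280), Mrps24 by 0.12 ± 0.04 (adjusted p = 0.0331), Mrpl23 by 0.10 ± 0.03 (adjusted p = 0.0373) and Mrps30, which has had a role in apoptosis ascribed to it, by 0.17 ± 0.05 (adjusted p = 0.0379). Without heterozygous replicate 1 the Mrpl23 slope was -0.06. The Mrps18b slope was -0.01 on the TPM scale, and -0.02 on counts without both deficient replicate 3 and heterozygous replicate 1. Mrps30 had 41.4, 42.0, 56.8 and 51.1 CPM in deficient libraries, 57.2, 27.4, 46.9 and 34.1 CPM in heterozygous libraries and 32.6 and 37.2 CPM in wildtype libraries, with the least advanced library of the deficient and of the heterozygous genotype again at the top. Mrps24 shares exons with Urgcp on its own strand, and Mrps18b and Mrps30 overlap genes on the other. Just outside the threshold were Mrps25 at 0.13 (adjusted p = 0.0506), Mrpl50 at 0.10 (0.0510) and Mrpl17 at 0.10 (0.0519).

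The calls on the index depended on the libraries at its ends. None of the members was called by edgeR without heterozygous replicate 1, when 684 genes were called in all, and 4 had an unadjusted p under 0.05, although all 10 slopes kept their sign. Without both deficient replicate 3 and heterozygous replicate 1 no gene of the table was called, 0 members had an unadjusted p under 0.05 and 9 of the 10 slopes kept their sign, Mrps24 being the exception at 0.03. Without the 3 libraries low in Gm23935, 21 members were called (27.3%), 3 rising and 18 falling, the 10 among them, when 33.9% of all genes were called, 17.4% rising and 16.5% falling. The split of directions also depended on the scale. On TPM with limma 10 members were called, but 9 rose and 1 fell, where 13.2% of all genes rose and 6.64% fell, and 3 of the 10 above were among them, namely Mrps11, Mrpl35 and Mrpl15; the median slope was 0.02 there, as it was over all genes. DESeq2 and limma voom on the counts each called 13 (16.9%), with 5 rising and 8 falling, the 10 above among them, where DESeq2 called 27.6% and limma voom 24.8% of all genes.

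**Figure D5:**
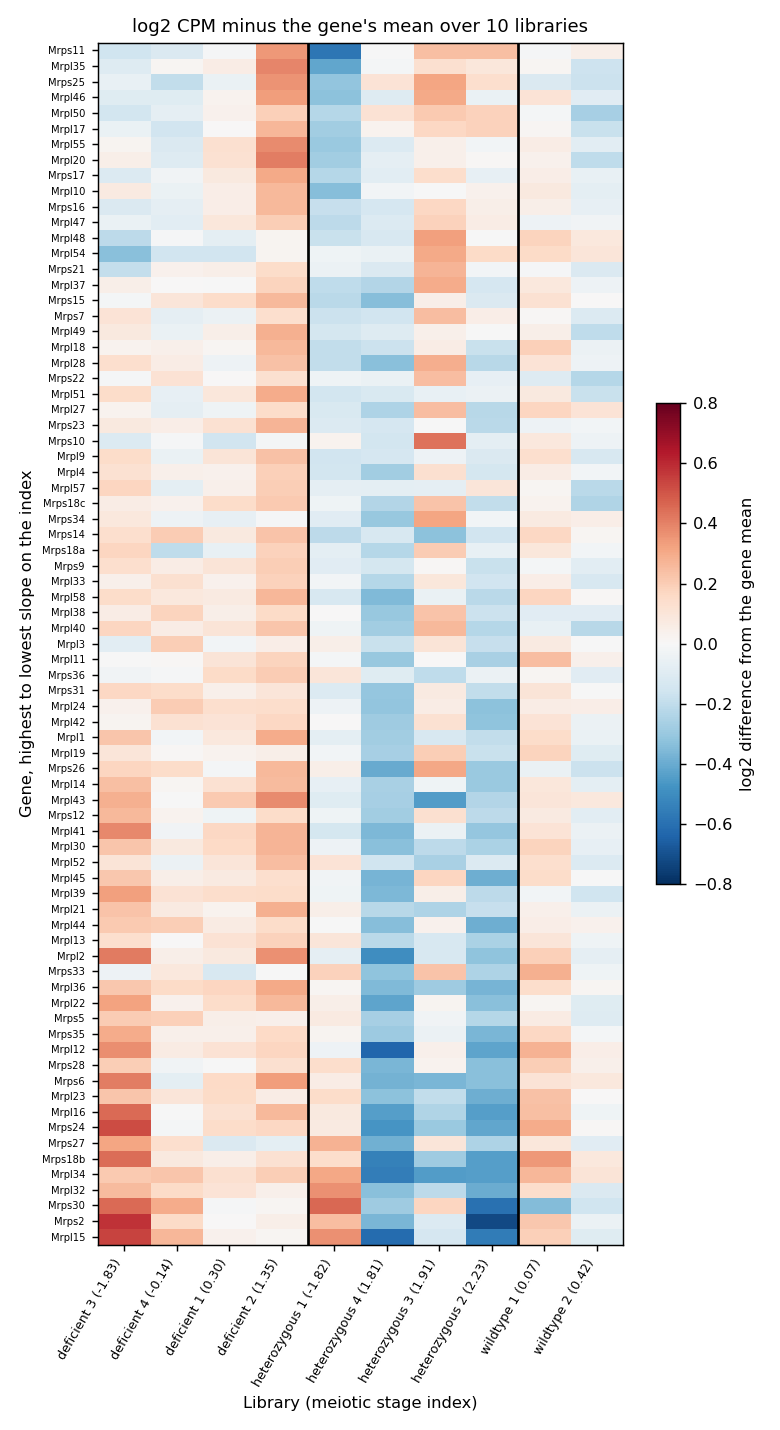
log2 CPM of each of the 77 tested members minus its mean over the 10 libraries, red above and blue below, with genes from the highest to the lowest slope on the index and libraries by genotype (deficient, heterozygous, wildtype) and then by index. Deficient replicate 2 is above the mean in most genes, and heterozygous replicates 2 and 4 are below it in the lower rows, where Mrpl15 and Mrps2 stand.

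The slopes of the head-to-head neighbours were compared with those of the members. Of 32 members with a tested head-to-head partner, 20 had a slope of the same sign as that partner. Mrps11 and Mrpl46 are each other's partner, so their pair entered both counts more than once. Exons of some pairs overlap, as for Mrpl48 and Rab6a, so their reads cannot be told apart there. The share of same-sign slopes among other gene pairs was not computed. The partner was called in 7 pairs (21.9%, near the 24.8% of all genes), rising in 4 and falling in 3: Lrrc46 beside Mrpl10 rose by 0.78, Cyb5rl beside Mrpl37 by 0.31 and Rab6a beside Mrpl48 by 0.23, and Mrps11 is itself the partner of Mrpl46, while Pnpla7 beside Mrpl41 fell by 0.19, Ncapd2 beside Mrpl51, a condensin subunit, by 0.14 and Fau beside Mrpl49, which encodes a cytosolic ribosomal protein, by 0.13. The members Mrpl10, Mrpl37, Mrpl48, Mrpl46, Mrpl41, Mrpl51 and Mrpl49 beside them were not called. These partners were named after their values were seen.

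Among genes that act on the mitoribosome or on mitochondrial DNA, 8 of 29 assembly factors were called, 3 rising and 5 falling, a share of 27.6%, near the 24.8% of all genes. Those that rose were the RNA methyltransferases Trmt61b, by 0.32 ± 0.09, and Nsun4, by 0.16 ± 0.05, and the helicase Ddx28, by 0.14 ± 0.05. Those that fell were C1qbp, by 0.24 ± 0.04, the pseudouridine synthase Trub2, by 0.21 ± 0.03, Rpusd3, by 0.20 ± 0.06, the GTPase Gtpbp10, by 0.14 ± 0.04, and Fastkd2, by 0.12 ± 0.03. Trmt61b, Nsun4, Ddx28 and Rpusd3 were named after their values were seen. Of 13 transcription and replication genes 4 were called (30.8%, against 24.8% of all genes). All 4 fell, where 11.8% of all genes were called as falling. Tfam, which packages and transcribes mitochondrial DNA, fell by 0.23 ± 0.04. The polymerase subunits Polg2 and Polg fell by 0.21 ± 0.04 and 0.17 ± 0.03, and the single-strand binding protein Ssbp1 by 0.16 ± 0.04. Of 16 translation factors 2 were called (12.5%): the initiation factor Mtif3 rose by 0.19 ± 0.05 and Lrpprc fell by 0.12 ± 0.03. Gadd45gip1, a large-subunit protein outside the symbol rule, fell by 0.35 ± 0.06. Of 9 regulators of mitochondrial genes Pprc1 and Esrra (22.2%, against 11.8% of all genes falling) each fell by 0.22. All have an adjusted p under 0.05, between 6.4e-04 and 0.0457. For comparison, 30 of 79 cytosolic ribosomal protein genes (38.0%) fell with the index, against 11.8% of all genes. None of them rose, 78 slopes being below 0. Of 83 nuclear-encoded respiratory chain genes 9 rose and 4 fell (15.7% called, against 24.8% of all genes). All 13 mitochondrially encoded genes had slopes below 0, between -0.18 and -0.06, with none called. Heterozygous replicate 3, at an index of 1.91 and low in Gm23935, stood apart in these genes. It had 4282 summed CPM of them, against 9366 to 13535 CPM in the other libraries. Its part in their slopes was not tested. Whether the mitoribosomal members differ from these groups was not tested.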

How the data were processed

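RNA of sorted germ cells from 10 libraries was analysed. Per the submitters' processing notes, the authors trimmed reads with Trim Galore 0.5.0, checked them with FastQC 0.11.5 and aligned them with HISAT2 2.1.0 and SAMtools 1.9 to GRCm38. The gene counts were deposited as whole reads per gene, from featureCounts (Subread 1.6.2) per those notes, and the TPM values were deposited from StringTie 1.3.3b. The annotation release and strand setting are not given in the sources used here, and the deposited DESeq2 table was not used, because its contrast is not given in them.

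Counts were tested with edgeR 4.0.16 (quasi-likelihood, TMM, filterByExpr by genotype, 1 model over 10 libraries, 20317 genes, Benjamini-Hochberg adjusted p under 0.05) in R 4.3.3; the fit recovered known changes in simulated data. Errors of log2 differences are standard errors. The 95% intervals take a normal quantile of that error, so with 10 libraries they are approximate and too narrow. DESeq2 1.42.0, limma 3.58.1 (voom, and log2(TPM + 1)), scalings, filters, covariates and left-out libraries were alternatives. Figures were drawn with matplotlib 3.10.9. Genes named are those with the smallest p or called, the highest and lowest levels and spreads, and members of known role. Members and lists were chosen with earlier results of these data known. Whether replicate numbers pair the libraries is not known. The correlation of deviations ran from -0.42 to 0.38 over 8 same-number pairs. It ran from -0.15 to 0.33 over 9 pairs that share a litter date, so it cannot decide the question. Library totals ran from 28949924 to 44166320 reads, and the median tested member had 79.7 CPM.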

Additional observations from a re-analysis of the deposited data

Results flagged for a closer look

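In 6 of 76 groups of 4 libraries examined over the 39 named members other than Mrpl53, 1 library lay far from the other 3. Chance gives about 1 in 20 for genes that were not selected. Some of these members were named for a large spread, a small p or a call, and all share the same libraries. That rate is therefore only a rough guide here. Deficient replicate 3, the least advanced deficient library, had 108 CPM of Mrpl39, against 92.9 to 94.7 CPM in the other deficient libraries, and 34.3 CPM of Mrps18b, against 25.98 to 27.4 CPM. Heterozygous replicate 1, the least advanced heterozygous library, had 30.5 CPM of Mrpl34, against 16.7 to 18.1 CPM in the other heterozygous libraries, and 36.3 CPM of Mrpl10, against 45.3 to 47.1 CPM. Heterozygous replicate 2 had 93.4 CPM of Mrpl57, against 82.7 to 83.2 CPM in the others of its genotype. Heterozygous replicate 3, which was low in Gm23935, had 115 CPM of Mrps22, against 92.6 to 94.6 CPM.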

How the results depend on the processing

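Of 848 values of 37 named gene results under the alternatives, 773 kept their direction and side of the threshold, 53 lost the threshold, 4 passed it and 18 changed sign. Only a result called in the main fit could lose the threshold, so all 53 losses fell on the called slopes among the 37. The called slopes of Mrpl23 and Mrps30 were not among the 37. Both lost the threshold on log2(TPM + 1), with the replicate number as a block and without heterozygous replicate 1. Most of the 37 results were genotype differences with no call to lose, so the 773 do not measure how stable the calls were. No member was called against wildtype or between heterozygous and wildtype libraries under any alternative run. Between deficient and heterozygous libraries 4 members were called by DESeq2 and 4 without heterozygous replicate 1, and leaving out each library in turn gave 0 to 4. The median difference of heterozygous from wildtype libraries was -0.0057 and -0.0059 on log2(TPM + 1) and log2(TPM + 0.1), and ran from -0.221 to -0.0365 with each library left out, the ends being without wildtype replicates 2 and 1. On the stage index 10 members were called, but 6 with no filter on low counts, 6 with litter date as a term, 21 without the 3 libraries low in Gm23935, and 0 to 11 with each library left out (0 without heterozygous replicate 1, 5 without deficient replicate 3 and without heterozygous replicates 2 or 4, and 6 without deficient replicate 1). With the replicate number as a block, which is not known to pair these libraries, 0 were called. The median difference of deficient from heterozygous libraries was 0.21 there. Without deficient replicate 3 and heterozygous replicate 1, chosen after seeing the data, 0 were called, the median slope was 0.060 (-0.0248 to 0.0086 with single libraries left out), and Mrps24 had a slope of 0.026, against -0.143 to -0.110 with single libraries left out. On the TPM scale at pseudocounts 1 and 0.1, differences of deficient from heterozygous libraries changed sign for Mrpl10 (-0.00074 and -0.00060), Mrpl11 (-0.0262 and -0.0263), Mrps18a (-0.0052 and -0.0051), Mrps18c (-0.0452 and -0.0453), Mrps22 (-0.0571 and -0.0574) and Mrps7 (-0.0359 and -0.0360). Mrps22 ran from -0.00055 (without heterozygous replicate 2) to 0.159, Mrps7 from -0.0070 (without deficient replicate 2) to 0.166, and Mrpl50 from -0.139 to 0.0205 (without heterozygous replicate 3), each with single libraries left out. Mrps7 was at -0.0324 without deficient replicate 3 and heterozygous replicate 1, and Mrpl50 at 0.0463 with the stage index as a term. The cause of these changes was not tested. Restricting to the 45 members whose exons overlap no other gene, also chosen after seeing the data, left the median difference of deficient from heterozygous libraries at 0.21. Mrpl53 was too low in the counts to test.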
